A study of Homo sapiens with 4 samples.

Results

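miR-183, miR-96 and miR-182 are 3 microRNAs (miRNAs) made from 1 cluster of hairpins on human chromosome 7. They were chosen by name and not by a cut on their values, though earlier results of these data were known. As a group they make up 3 of the 455 human miRNAs probed. They are covered by 7 array probes: 3 matched human probes, 3 human probes with 2 mismatches, and 1 mouse-named probe for miR-96. The cells were LAPC-4, an androgen receptor-positive line from a human prostate tumour. After 24 hours in androgen-free medium, made with 10% serum stripped of steroids by charcoal, they received the synthetic androgen R1881 at 0, 0.1, 1 or 10 nM, and 10 micrograms of total RNA from each was Cy3-labelled for a custom single-colour CombiMatrix array. The question was which miRNAs respond to androgen. Each dose had 1 array, so no ratio has a replicate error, and all 3 ratios of a miRNA share the same untreated array.

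A miRNA guides a silencing complex to messenger RNAs through its seed, the bases near its 5′ end, and lowers their stability and translation. The miR-183 cluster is transcribed as 1 precursor and is best known from sensory cells of the ear and retina. In prostate tumours its members have been reported as raised, and they have been reported to act on the zinc transporter ZIP1. miR-96 and miR-182 have been reported to act on the transcription factors FOXO1 and FOXO3, which restrain growth, and miR-183 on EGR1.

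In the RefSeq table for GRCh38.p14 the hairpins lie on the minus strand, so MIR183 (chr7:129774905-129775014) comes first in transcription. MIR96 (chr7:129774692-129774769) follows after 135 bases and MIR182 (chr7:129770383-129770492) after another 4199. The whole cluster spans 4632 bases, and the table lists 0 other genes that overlap a hairpin. The mature 5p sequences, which the member probes are named for, are given 5′ to 3′ with the seed (bases 2 to 8) in capitals. The seeds differ from each other by 1 or 2 bases. Whether the likeness of the sequences affected what each probe read was not tested.
hsa-miR-183-5p: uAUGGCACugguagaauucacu
hsa-miR-96-5p: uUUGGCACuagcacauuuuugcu
hsa-miR-182-5p: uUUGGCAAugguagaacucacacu

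Counted from the 5′ end, the miR-96 and miR-182 seeds differ only by C8A, with the miR-96 base first. Those of miR-183 and miR-96 differ only by A2U, with the miR-183 base first. All 3 share the letters UGGCA at bases 3 to 7, which 10 of 2545 mature sequences in the table (0.393%) hold there. miR-96 shares its seed with hsa-miR-1271-5p, which was not analysed here, and no other mature sequence in the table has the seed of miR-183 or of miR-182. Over the whole molecule, miR-183 and miR-182 match at 18 of 22 positions and differ by A2U, C8A, U17C and U22A, with the miR-183 base first. miR-183 and miR-96 match at 13 of 22, and miR-96 and miR-182 at 12 of 23. The probe sequences were not used here.

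All 3 members were detected on all 4 arrays. Detection means an intensity above the 95th percentile of the mismatch probes of the same array, a limit of 117.6, 135.5, 138 and 143.5 from the untreated array to 10 nM. Of the 455 human miRNAs, 136 were above it on at least 1 array and 106 on all 4. Intensities are mean spot brightness in linear units. For 1 probe they can be compared between arrays only as far as the arrays share a scale. They do not show which miRNA is more abundant. In bulk RNA, fewer cells that hold a miRNA and less of it per cell cannot be told apart.

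miR-183 read 209 on the untreated array and 226.5, 238.5 and 305.5 at 0.1, 1 and 10 nM. Each dose was thus brighter than the one below, with the widest step between 1 and 10 nM. miR-96, the middle hairpin of the cluster, read 346.75, 384.25, 404.75 and 440.25 in the same order. Its mouse-named probe read 378, 386.25, 423 and 435.5. Both miR-96 probes therefore stood in the order of dose too. miR-182 read 834.5, 831, 760.5 and 1064.25, so 0.1 nM matched the untreated array, 1 nM was the lowest of the 4 and 10 nM the highest.

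**Figure D1:**
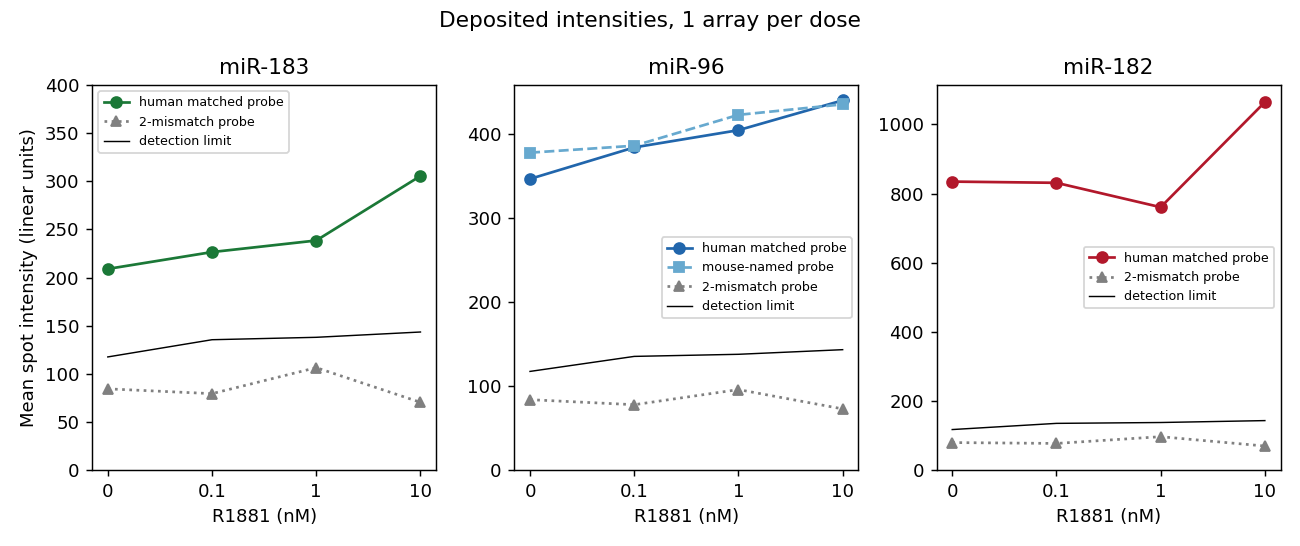
Deposited mean spot intensity (linear units) against R1881 dose (nM) for miR-183, miR-96 and miR-182, 1 array per dose. Coloured points are the matched human probes, pale squares the mouse-named miR-96 probe, grey triangles the 2-mismatch probes and the thin line the detection limit. miR-183 and miR-96 stand in the order of dose, whereas miR-182 has its lowest value, 760.5, at 1 nM.

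These orders were common on the arrays. Among the 136 detected miRNAs, 71.3% were brightest at 10 nM, as all 3 members were. An intensity that stood higher at every dose than at the one below, as for miR-183 and miR-96, occurred in 35.3%, and 22.1% were dimmest at 1 nM, as miR-182 was. The mean of the detected miRNAs rose from 371 on the untreated array to 407, 412 and 493 at 0.1, 1 and 10 nM. Their median was 198, 204.75, 203.6 and 237.4, highest at 10 nM but not higher at 1 than at 0.1 nM. The median over all probes was 90, 88, 91.9 and 83. The size of the common shift of the detected miRNAs in the ratios depends on how the arrays are scaled.

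The mismatch probes, which carry 2 wrong bases and serve as a check on specific binding, stayed under the limit on every array for all 3 members. That of miR-183 read 84.5, 79.5, 106.5 and 70.5 at 0, 0.1, 1 and 10 nM. Those of miR-96 (84, 78, 96 and 73) and miR-182 (80, 77.5, 97 and 70) followed the same order. All 3 were brightest at 1 nM and dimmest at 10 nM, where the matched probes were brightest. Of 576 mismatch probes 48.1% were brightest at 1 nM. The matched probe exceeded its own mismatch probe by 2.24- to 4.33-fold for miR-183, 4.13- to 6.03-fold for miR-96 and 7.84- to 15.2-fold for miR-182, lowest at 1 nM for miR-183 and miR-182, lowest on the untreated array for miR-96 and highest at 10 nM for all 3.

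The other arm of the miR-182 hairpin was probed as miR-182*, now called miR-182-3p. The hairpin is printed with both mature arms in capitals, since it is the member whose arms were both on the array.
MIR182 hairpin: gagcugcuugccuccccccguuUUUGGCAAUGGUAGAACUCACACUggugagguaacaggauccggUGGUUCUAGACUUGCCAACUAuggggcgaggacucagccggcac
miR-182* read 69.5, 69.5, 74.75 and 67, under the limit on all 4 arrays and 0.901 to 1.02 times its own mismatch probe. It was not detectable at any dose, whereas the 5p arm was 5.51 to 7.42 times the limit. The other arms of miR-183 and miR-96 were not analysed here.

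Log2 ratios to the untreated array were then taken after quantile normalization, which gives every array the same distribution of values. For miR-183 they were 0.00, 0.04 and 0.22 at 0.1, 1 and 10 nM, a 1.17-fold higher level at the top dose. For miR-96 they were −0.01, 0.10 and −0.07. For miR-182 they were −0.12, −0.30 and 0.00. The exact 0 of miR-182 at 10 nM is the same ranked value on both arrays, where it was the 12th brightest human miRNA.

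None of the 9 ratios reached 1.5-fold in either direction, the largest in size being the −0.30 of miR-182 at 1 nM. At 10 nM, 2.21% of the 136 detected miRNAs were at least 1.5-fold higher and 2.21% at least 1.5-fold lower. At 0.1 nM 1.47% were 1.5-fold higher and 0% lower, and at 1 nM 2.21% each. Of the members only miR-183 lay above the untreated level at all 3 doses, as 26.5% of detected miRNAs did, and at 0.1 nM it did so by 0.002. None lay below at all 3 doses, against 42.6%. These shares are over miRNAs detected on at least 1 array, whereas the members were detected on all 4. The untreated array had the lowest limit and the most detected miRNAs, 129 against 119, 114 and 117. A miRNA that passed only there is likelier to lie below it at the doses. A rising slope over dose rank occurred in 43.4% of the 136 and in 48.1% of the 106 detected on all 4.

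Without any scaling between arrays the picture at 10 nM was different. The ratio was 0.64 for miR-183 (1.56-fold), 0.39 for miR-96 (1.31-fold) and 0.37 for miR-182 (1.29-fold). The median of the 136 detected miRNAs was then 0.38 at that dose, and 0.13 and 0.17 at 0.1 and 1 nM. Of the 3 members miR-183 was past 1.5-fold, as 30.9% of detected miRNAs were. Background was still corrected here. In the deposited intensities miR-183 was 1.46-fold higher at 10 nM, under this threshold. Relative to the median, miR-183 stood at 0.25, miR-96 at 0.01 and miR-182 at −0.02, close to the 0.26, −0.03 and 0.04 that they had relative to the median after quantile normalization. At 0.1 and 1 nM miR-96 had 0.17 and 0.24, miR-183 0.15 and 0.21, and miR-182 −0.0007 and −0.14. miR-183 and miR-96 thus lay above the untreated level at all 3 doses, as 65.4% of detected miRNAs did.

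**Figure D2:**
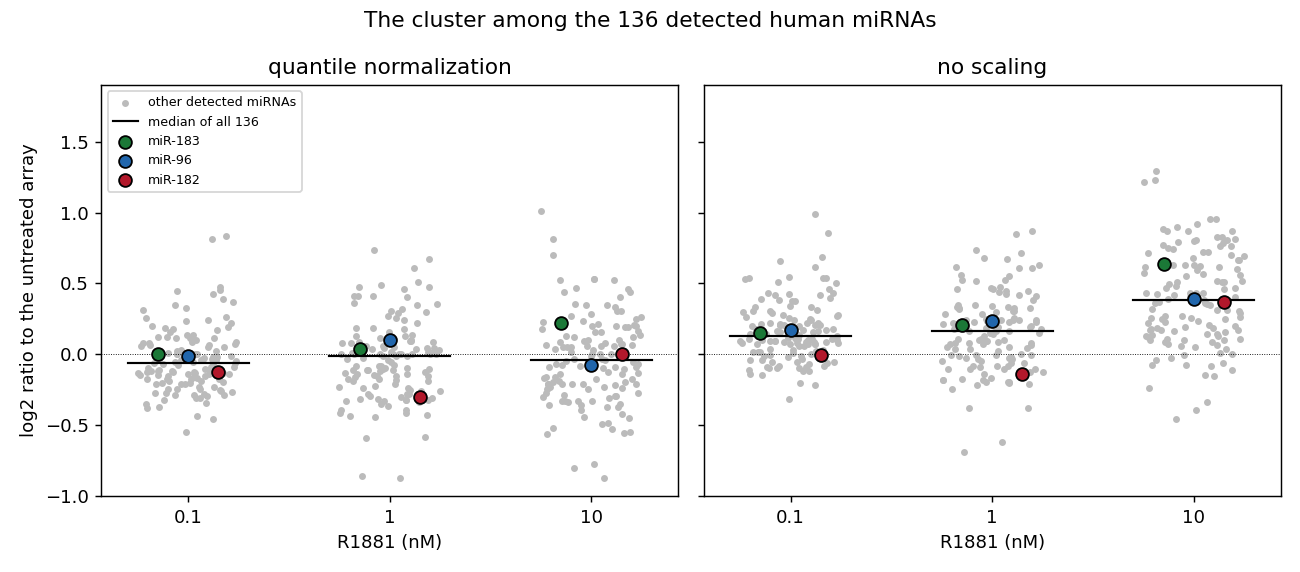
Log2 ratio to the untreated array against R1881 dose (nM) after quantile normalization (left) and with no scaling (right), 1 array per dose. Grey points are the other detected human miRNAs, coloured points the 3 members and black lines the median of all 136, which at 10 nM lies at −0.04 on the left and 0.38 on the right; miR-183 lies above it at 10 nM in both and miR-182 below it at 1 nM in both.

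The authors' value table gives the same probes after a background had been removed. Its values equalled the array's intensities minus 84.5, 82, 87 and 76 from the untreated array to 10 nM, and each constant equalled the median of the 604 mismatch probes of that array. Probes at under 2 times the constant had no value. In the authors' deposited table miR-183 had 124.5, 144.5, 151.5 and 229.5, a 1.84-fold higher value at 10 nM. There miR-96 had 262.25, 302.25, 317.75 and 364.25, a 1.39-fold higher value. In that table miR-182 had 750, 749, 673.5 and 988.25, a 1.32-fold higher value.

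Among the members, the value of miR-183 depended most on background. Its intensity at 10 nM was 1.46 times the untreated one as deposited and 1.84 times after the constant was removed. For miR-182 these were 1.28 and 1.32 times. Over the 74 human miRNAs with an authors' value on all 4 arrays, the median log2 ratio at 10 nM was 0.50, and 44.6% were at least 1.5-fold higher. miR-183, with 0.88, was among them and 10 of the 74 had a higher ratio, while miR-96 and miR-182 had 0.47 and 0.40. Subtracting each member's own mismatch probe gave 0.92, 0.48 and 0.40 for miR-183, miR-96 and miR-182.

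Of the 9 ratios, 5 had the same direction under all 8 ways of processing. miR-183 had a ratio above 0 at 1 nM, between 0.04 and 0.28, and at 10 nM, between 0.21 and 0.92. miR-182 had one below 0 at 0.1 nM, between −0.18 and −0.0007. At 1 nM it was again below 0, between −0.34 and −0.14, and stood 0.29 below the median of the detected miRNAs after quantile normalization, with 113 of 136 having a higher ratio. miR-96 at 1 nM was above 0 in all 8 as well, between 0.06 and 0.28. At 10 nM miR-96 was above 0 in 5 of the 8 and below in 3, and miR-182 was above in 5, below in 1 and at 0 in 2. These 8 share the same 4 arrays and are no replicates.

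**Figure D3:**
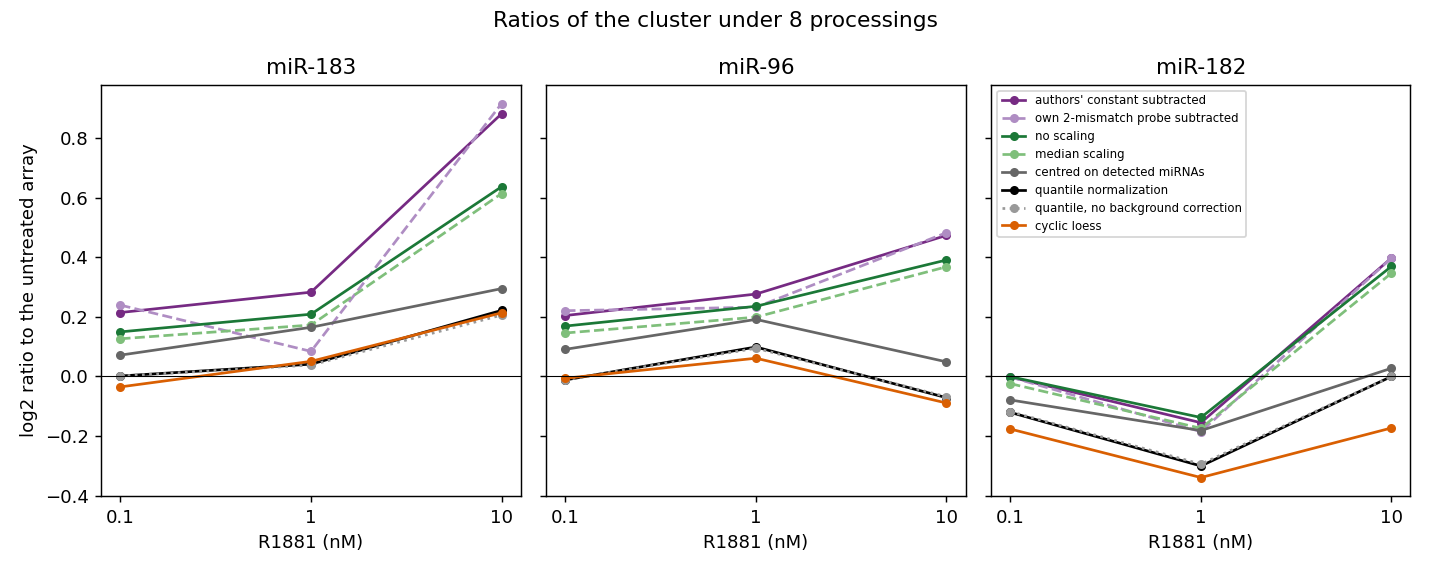
Log2 ratio to the untreated array against R1881 dose (nM) for each member, with a line for each of 8 ways of processing the same 4 arrays. At 10 nM miR-183 ranges from 0.21 to 0.92 and miR-96 from −0.09 to 0.48, and at 1 nM miR-182 ranges from −0.34 to −0.14.

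The 3 members did not have equal ratios. Differences between members on the same array do not depend on a common scaling factor. With no scaling, the ratio of miR-183 exceeded that of miR-182 by 0.15, 0.35 and 0.27 at 0.1, 1 and 10 nM. miR-96 exceeded miR-182 by 0.17, 0.37 and 0.02. miR-183 and miR-96 differed by −0.02, −0.03 and 0.25, the widest gap being at 10 nM. These differences have no replicate error. For scale, the human miR-96 probe exceeded its mouse-named probe by 0.12, 0.065 and 0.15 at these doses. Over 31 rodent-named probes of detected miRNAs the median absolute difference from the human probe was 0.09, 0.065 and 0.12, with SDs of 0.21, 0.20 and 0.25. The gaps at 1 nM between miR-182 and the other members were wider than that SD, and that between miR-183 and miR-182 at 10 nM slightly wider. The gap of 0.25 between miR-183 and miR-96 at 10 nM did not exceed it. That SD is a spread over different miRNAs, with largest absolute differences of 0.89, 0.61 and 0.86. Sequences of the human and rodent-named probes were not compared. The SD is therefore no error of a member's ratio and does not decide which gaps are real. With the authors' constants subtracted, the gap between miR-183 and miR-182 at 10 nM was 0.48 and that between miR-183 and miR-96 0.41. The same gaps were 0.20 and 0.20 in the deposited intensities, 0.22 and 0.29 after quantile normalization and 0.39 and 0.30 after cyclic loess. The SD was taken with no scaling only, and whether a gap at 10 nM is wider than 0.25 changes with the processing.

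**Figure D4:**
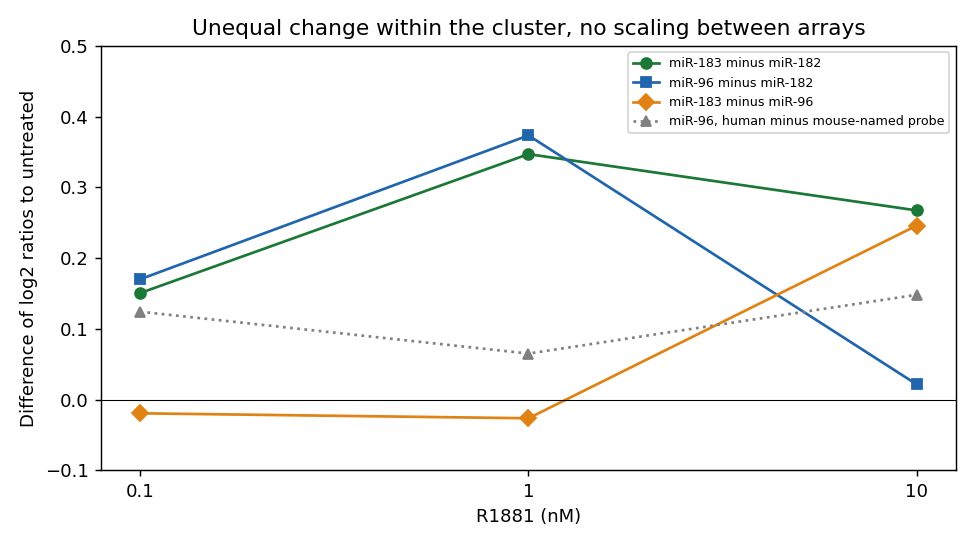
Difference between 2 probes' log2 ratios to the untreated array, with no scaling, against R1881 dose (nM). Coloured lines are pairs of members and the dotted line is the human minus the mouse-named miR-96 probe; at 1 nM miR-183 and miR-96 exceed miR-182 by 0.35 and 0.37, against 0.065 between the miR-96 probes.

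A straight line over dose rank was fitted to each detected miRNA with limma, which leaves 2 residual degrees of freedom. For miR-183 the slope per step of dose was 0.07 ± 0.03 on the log2 scale (SE over 4 arrays, adjusted p = 0.228 in limma). That of miR-96 was −0.01 ± 0.04 (limma, adjusted p = 0.863) and that of miR-182 −0.02 ± 0.06 (limma, adjusted p = 0.850). After quantile normalization 0 of the 136 passed an adjusted p of 0.05 in limma (0% rising and 0% falling), and 36 had an unadjusted p under 0.05, none of them a member.

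Without scaling miR-183 passed with a rising slope of 0.20 ± 0.05 (limma, adjusted p = 0.0127), as did 38.2% of the miRNAs tested. miR-96 and miR-182 did not pass there, at 0.12 ± 0.05 and 0.10 ± 0.06 (limma, adjusted p = 0.0620 and 0.238). Centred on the median of the detected miRNAs, miR-183 had 0.10 ± 0.04 (limma, adjusted p = 0.121), and 5.15% of miRNAs passed with a rising slope. Separate cultures for the arrays are not stated in the labels. These p-values thus reflect only how values on 4 arrays depart from lines, and that spread may be technical. limma also draws the variance of each miRNA toward that of the others tested. This added 2.7 prior degrees of freedom after quantile normalization and 10.0 with no scaling to the 2 residual ones.

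Likeness of pattern was measured as the root mean square difference of the 4 quantile-normalized log2 values, each miRNA centred on its own mean, over 4 arrays. The 4 miRNAs most like miR-183 were miR-24, miR-106b, miR-18a and miR-660, at 0.01 to 0.03. Those most like miR-96 were miR-27b, miR-206, miR-365 and miR-221, at 0.02 to 0.04. Those most like miR-182 were miR-210, miR-22, miR-130b and miR-224, at 0.05 to 0.07. No member was among the 4 nearest to another. Those 4 were picked for the smallest difference, so any miRNA outside them is farther. The differences were 0.13 between miR-183 and miR-182, 0.14 between miR-183 and miR-96 and 0.18 between miR-96 and miR-182. Seen from miR-183, 56 of the other 135 miRNAs were closer than miR-182 and 63 closer than miR-96, and seen from miR-96, 109 of the 135 were closer than miR-182. With no scaling miR-24 was again nearest to miR-183 and miR-27b to miR-96, and miR-224 was nearest to miR-182.

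Each member was also set beside its neighbours in mean brightness among the detected miRNAs, whose ratios at 10 nM share its range of intensities. For miR-183 (0.22) these were miR-101, with 0.21, and let-7e, with −0.24. For miR-96 (−0.07) they were miR-15b, with −0.04, and miR-15a, with 0.20. For miR-182 (0.00) they were miR-106b, with 0.21, and miR-30b, with 0.05. With no scaling miR-101 (0.62) was again close to miR-183 (0.64) and miR-15b (0.39) to miR-96 (0.39), whereas both neighbours of miR-182 (0.37) had higher ratios, 0.60 for miR-106b and 0.63 for miR-30b.

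Beside the cluster, 3 lists of miRNAs with related roles were described. The miR-200 family, which maintains the epithelial state, had 3 of 5 members detected: miR-200b, miR-200c and miR-141. At 10 nM they had −0.21, −0.20 and −0.33, and miR-200c and miR-141 were lower at all 3 doses, as 42.6% of detected miRNAs were. With no scaling, miR-200b and miR-200c were instead higher at all 3 doses, as 65.4% were, and miR-141 had −0.05, −0.12 and 0.05. The median of the family's mean ratios was −0.16, against −0.04 over all detected miRNAs. With no scaling it was 0.17, against 0.21.

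Of 5 miRNAs reported, like miR-96 and miR-182, to act on FOXO factors, miR-27a, miR-27b and miR-155 were detected, miR-155 on the untreated array alone, while miR-223 and miR-9 were under the limit on every array. miR-27a was lower at all 3 doses, with −0.06, −0.04 and −0.16, as 42.6% of detected miRNAs were, and miR-27b had −0.04, 0.08 and −0.04. miR-155 had −0.04, −0.13 and −0.07, and since it passed the limit through the untreated array only, its values below 0 are not counted. With no scaling miR-27a and miR-27b were above the untreated level at every dose, as 65.4% of detected miRNAs were. There miR-155, again not counted, had 0.17, 0.05 and 0.27. The mean ratios of miR-27a and miR-27b over the doses were −0.09 and −0.001, and 0.17 and 0.28 with no scaling.

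Of 8 miRNAs named with the cluster as raised in prostate tumours, 7 were detected: miR-375, miR-148a, miR-200c, miR-20a, miR-106a, miR-25 and miR-93, with miR-375 above the limit on the untreated array alone. After quantile normalization miR-148a and miR-106a were higher at all 3 doses, as 26.5% of detected miRNAs were, and miR-200c was lower. miR-375, which passed the limit through the untreated array only and is not counted, had −0.43, −0.39 and −0.37. With no scaling the 6 besides miR-375 were higher at all 3 doses, as 65.4% of detected miRNAs were. There miR-375, again not counted, had −0.20, −0.18 and 0.01. The mean ratios of these 6 ran from −0.16 (miR-200c) to 0.27 (miR-148a), and from 0.19 to 0.60 for the same miRNAs with no scaling. After quantile normalization 0 members of any of these lists passed limma's trend test. With no scaling 5 of the 7 tumour-list miRNAs did, all with rising slopes, as 38.2% of the miRNAs tested did, namely miR-148a, miR-20a, miR-106a, miR-25 and miR-93, and 0 of the other 2 lists did. The miR-200 family and the tumour list share miR-200c.

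All 5 epithelial and luminal markers examined, miR-141, miR-200c, miR-200b, miR-375 and miR-148a, were detected on at least 1 array, miR-375 on the untreated array alone. The 5 leave out miR-200a and miR-429 of the epithelial miR-200 family, which were under the limit on every array. Of 12 markers of fibroblast, smooth muscle, blood, muscle and neural cells, 2 were detected, miR-206, known from skeletal muscle, and miR-128a, known from brain. The other 10 were under the limit on every array, and the summed intensity of the 12 ranged from 1149.5 to 1184. Their part in the results of the cluster was not tested.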

How the data were processed

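The authors deposited 1 mean spot intensity per probe name and array in linear units, per the file headers, and a table of the same intensities minus a constant per array. The scanner and its software are not stated in the labels. Of 1406 probe names on each array, 28 mismatch probes listed at 0 on an array were left out. The other 1378 had their background corrected by normexp (offset 50) in limma 3.58.1 under R 4.3.3, were quantile-normalized between arrays and log2-transformed. Quantile normalization pulls bright probes to shared ranked values, so ratios with no scaling are printed beside it.

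The dose in each sample's title set its group. Ratios to the untreated array carry no test, because each dose had 1 array. Trends over dose rank were fitted in limma over 136 detected human miRNAs with Benjamini-Hochberg adjustment. The trend fit was also run on simulated log2 values with independent noise. These had no background, normalization or shift between arrays, so that run cannot show how scaling affects the calls. The number of arrays limits the precision. The members and lists were chosen with earlier results of these data known.

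miRNAs named are the 3 members on every probe with their name, the 4 most similar in pattern to each, their neighbours in brightness, and 3 lists (miR-200 family, FOXO-directed, raised in prostate tumours) with cell type markers. Alternatives were median scaling, no scaling, cyclic loess, centring on detected miRNAs, no background correction, mismatch subtraction, other filters, fold thresholds and dose codings, and leaving out each array. Subtracting the authors' constants was added after seeing the data. Sequences and coordinates are from RefSeq tables for GRCh38.p14, where all 3 names matched.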

Additional observations from a re-analysis of the deposited data

How the results depend on the processing

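The ratios of the members moved with scaling and background. At 10 nM miR-183, miR-96 and miR-182 had log2 ratios of 0.22, −0.07 and 0.00 after quantile normalization, 0.64, 0.39 and 0.37 with no scaling, 0.61, 0.37 and 0.35 with median scaling, 0.92, 0.48 and 0.40 with the own mismatch probe subtracted, and 0.88, 0.47 and 0.40 with the authors' constants subtracted. Centring on the detected miRNAs, cyclic loess and no background correction moved these values by less than the SD between human and rodent probes. In limma's trend test the miR-183 slope passed with no scaling (0.20, adjusted p = 0.0127), median scaling (0.19, adjusted p = 0.0241) and the authors' constants (0.27, adjusted p = 0.00565, over 74 miRNAs). The prior degrees of freedom taken from the other miRNAs were 10.0, 9.2 and 30.2 there, beside 2 residual ones. The sign of the miR-96 slope turned with no scaling (0.12), median scaling (0.12), centring (0.02), the authors' constants (0.15) and a step from untreated to treated (0.01), and that of miR-182 with no scaling (0.10), median scaling (0.09) and the authors' constants (0.10). None of these 8 slopes passed in limma (adjusted p from 0.0620 to 0.983). The cause was not tested. Leaving out each array in turn was done after quantile normalization only, with 1 residual degree of freedom. It gave slopes of 0.02 to 0.11 for miR-183, −0.03 to 0.05 for miR-96 and −0.15 to 0.06 for miR-182. The lowest miR-183 slope, 0.02, was the one without the 10 nM array. The miR-96 slope turned without the 10 nM array, and that of miR-182 without the untreated or the 1 nM array (0.06 and 0.01). The count of miRNAs that passed was 0 after quantile normalization, 53 with no scaling, 49 with median scaling, 13 with centring, 23 with cyclic loess, 32 with the authors' constants, 18 with no detection filter and 0 to 2 when 1 array was left out. After quantile normalization 0 of the 9 member ratios were past a lower or a higher fold threshold. With no scaling, the authors' constants or the own mismatch probe subtracted, all 3 members were past the lower one at 10 nM. In each of these settings 1 member was past 1.5-fold and 0 were past 2-fold. Most miRNAs were past the lower threshold too. With no scaling 70 of the 136 had a higher ratio at 10 nM than miR-182 (0.37). With the authors' constants 49 of the 74 had a higher one than miR-182 (0.40). At least 1.5-fold higher were 30.9% and 44.6%. Passing the lower threshold therefore does not set the members apart. No such share was taken with the own mismatch probe subtracted. No paired analysis was possible because each dose had 1 array. miR-183, at 1.67 to 2.13 times the detection limit, was the member nearest to background.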
